A study of Mus musculus with 8 samples.

Results

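The AP-1 transcription factors described here are 8 mouse genes, Fos, Fosb, Fosl2, Jun, Junb, Jund, Atf3 and Jdp2. They were chosen by symbol, as the rows of a raw count table whose Ensembl identifiers map to those names. All 8 were found among the 55487 genes of the table, and all 8 were among the 17047 genes that passed the filter on low counts and were tested. The series asks how low oxygen changes the function of the glucocorticoid receptor. The RNA came from the hypothalamus, which sets off glucocorticoid release through the pituitary and adrenal glands, of C57BL/6J mice. In the hypoxia group 4 mice breathed 7% oxygen for 2 hours, and in the normoxia group 4 mice were kept at 21% oxygen for 2 hours. The labels give no drug, transgene or mutant allele for either group, and no age was used here. Each library was made from polyadenylated RNA of whole dissected tissue, so fewer cells of a type and less RNA per cell cannot be told apart.

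AP-1 is a family of dimers that bind DNA through a basic region and hold together through a leucine zipper. FOS proteins need a JUN partner to bind, whereas JUN proteins can also pair with each other. ATF3 and JDP2 are related zipper proteins that pair with JUN proteins and often repress the same sites. In neurons, Fos, Fosb, Junb and Atf3 are immediate early genes, transcribed briefly after synaptic activity or stress, and Jund is known for a steadier level. The glucocorticoid receptor and AP-1 are known to interfere with each other at shared target genes.

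Total counts ran from 16994473 to 21694383 per library. Values below are CPM, counts scaled by TMM to a common library total. Markers of neighbouring tissue differed between libraries, most widely in normoxia replicates 1 and 2 and hypoxia replicate 4. The summed CPM of 9 cortex and hippocampus markers was 1779 in normoxia replicate 2, 669 to 873 in the other normoxia libraries and 771 to 976 in hypoxia, and none of the 9 was at 0 throughout. The 13 hypothalamus markers summed to 422 in normoxia replicate 2 and to 625 to 898 elsewhere. Slc17a7, the vesicular glutamate transporter of cortical neurons, was at 384 CPM in that library and at 7.92 to 80.3 CPM in the others. The 6 pituitary markers summed to 80.4 in normoxia replicate 2, to 42.3 in hypoxia replicate 4 and to 0.193 to 9.64 in the others, with Lhb at 0 in all libraries. The 6 thalamus markers summed to 456 in normoxia replicate 1 and to 137 to 240 in the others, and the 6 striatum markers to 384 to 635 in hypoxia and 214 to 579 in normoxia. Fold changes of the 8 genes and counts of calls below are therefore given with and without normoxia replicate 2. Where a fold change of the 8 moved by over 1.5 times without another library, that is given singly or as a range. Fold changes of genes from other lists are from all 8 libraries unless said otherwise. The part of these tissues in the results was not tested.

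The promoters of the 5 genes whose levels varied most between normoxia libraries are shown first, with a window of Jund. That window held letters matching the glucocorticoid response palindrome. Each line is the 150 bases before the RefSeq transcript start, on the gene's own strand. Capitals mark the short cAMP response element TGACG, which reads CGTCA on the other strand. They also mark the hypoxia response element core GCGTG (on the other strand, CACGC). The related core ACGTG, which on the other strand reads as CACGT, is marked too. In the Jund line the last capitals mark the glucocorticoid response palindrome.
Fos, chr12:85473740-85473889, plus strand: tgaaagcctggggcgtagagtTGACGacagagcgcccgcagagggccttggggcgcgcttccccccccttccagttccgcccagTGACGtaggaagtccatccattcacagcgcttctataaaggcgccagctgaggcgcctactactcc
Fosb, chr7:19310046-19310195, minus strand: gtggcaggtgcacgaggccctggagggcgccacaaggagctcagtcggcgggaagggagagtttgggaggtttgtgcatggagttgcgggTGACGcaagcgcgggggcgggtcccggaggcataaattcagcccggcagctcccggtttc
Junb, chr8:84978749-84978898, minus strand: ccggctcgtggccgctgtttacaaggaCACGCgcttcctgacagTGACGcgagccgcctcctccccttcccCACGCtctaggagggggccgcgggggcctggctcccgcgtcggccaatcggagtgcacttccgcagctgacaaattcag
Atf3, chr1:191183334-191183483, minus strand: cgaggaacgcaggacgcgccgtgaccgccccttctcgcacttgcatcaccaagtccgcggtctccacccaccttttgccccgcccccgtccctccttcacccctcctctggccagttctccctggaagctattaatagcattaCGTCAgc
Fosl2, chr5:32136322-32136471, plus strand: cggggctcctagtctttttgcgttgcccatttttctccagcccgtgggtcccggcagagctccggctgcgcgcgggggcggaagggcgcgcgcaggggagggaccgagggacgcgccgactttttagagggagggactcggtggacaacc
Jund, chr8:70697589-70697738, plus strand: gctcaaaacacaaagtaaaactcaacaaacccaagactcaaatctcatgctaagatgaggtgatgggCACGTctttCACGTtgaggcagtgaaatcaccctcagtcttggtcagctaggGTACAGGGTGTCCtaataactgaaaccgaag

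The short cAMP response element, the letters read by CREB proteins, began at positions −129 and −66 of Fos, counted in bases from the transcript start. It began at −60 in Fosb, at −106 in Junb and, on the other strand, at −7 in Atf3. Of the 3 windows of Jdp2, 1 also held it, at −114, overlapping an ACGTG. The search covered both strands of 300-base windows, from 250 before to 50 after each start, and 20.8% of 32851 mouse windows held TGACG. The GCGTG core was in the windows of Fos, Fosb, Junb and Atf3 and in 2 windows of Jdp2, and in 32.4% of all windows. The ACGTG core was in the Jund window at 2 positions and in 1 Jdp2 window, and in 19.6% of all windows. The glucocorticoid palindrome was in the Jund window alone, at −31, and in 0.475% of all windows. That RefSeq start lies 1210 bases upstream of the Jund gene in the GENCODE annotation, so the window is not the one next to the counted exon. The Atf3 start used lies 34706 bases inside the GENCODE gene and the Fosl2 start 671 bases inside it. No member window held the AP-1 site TGANTCA (7.81% of all windows), the full element TGACGTCA (1.79%) or a CArG box (1.63%), and the Fosl2 and Jun windows held none of the 7 motifs searched. A match is a description of letters and not of binding.

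Per kilobase of exon, Jund was the most abundant of the 8 transcripts in both groups. It stood at 61.8 ± 8.16 CPM per kb in hypoxia and 49.3 ± 8.73 in normoxia (SD, both groups of n = 4), above every library of Jun. Jun, the founding JUN gene, followed at 13.0 ± 0.513 and 14.8 ± 1.46 CPM per kb. Jdp2 stood at 10.3 ± 0.586 and 10.4 ± 1.95, Fos at 10.1 ± 3.41 and 7.78 ± 4.32, and Junb at 7.12 ± 0.491 and 7.46 ± 4.54. The library ranges of Jdp2 and Fos overlapped in both groups, as did those of Fos and Junb, so their order is not fixed by these data. Fosl2 was at 3.27 ± 0.547 and 2.48 ± 1.41, Fosb at 1.88 ± 0.540 and 1.26 ± 0.963, and Atf3 lowest at 0.507 ± 0.151 and 0.307 ± 0.178. Fosl2 and Fosb did not overlap in hypoxia and did in normoxia. With the longest coding transcript as the length, Jund stayed highest and Atf3 lowest, but Jdp2, at 13.4 ± 0.766 in hypoxia, could not be separated from Jun.

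**Figure D1:**
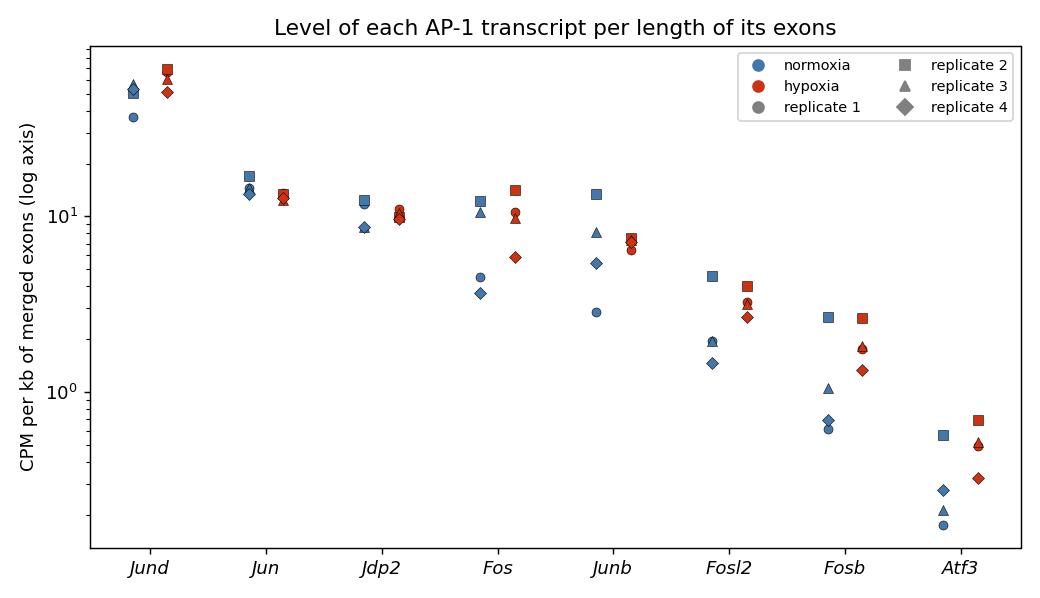
CPM per kilobase of merged exons (log axis) for each AP-1 transcript, in order of the hypoxia mean. Points are single libraries, blue for normoxia and red for hypoxia, with 1 marker shape per replicate number. Jund lies above all others, and the normoxia points of Fos, Junb, Fosl2 and Fosb spread far more than those of Jun.

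As a share of the summed CPM per kb of the 8 genes, Jund took 57.2 ± 0.971% in hypoxia (SD, n = 4) and 52.9 ± 7.19% in normoxia. Its share ran from 56.1 to 58.5% across the hypoxia libraries and from 44.5 to 61.2% across the normoxia libraries. Jun took 12.2 ± 1.32% and 16.1 ± 2.56%, Fos 9.18 ± 2.11% and 7.92 ± 3.26%, and Fosb and Atf3 together less than any other member. RNA shares say nothing of the amounts of protein or of which dimers form.

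Fos (ENSMUSG00000021250, chr12:85473890-85477273, plus strand) encodes the FOS protein and is the common marker of recent neuronal activity. It stood at 24.9, 33.4, 22.9 and 13.9 CPM in hypoxia replicates 1 to 4, and at 10.7, 28.9, 25.0 and 8.58 CPM in normoxia replicates 1 to 4. Normoxia replicates 2 and 3 lay among the hypoxia libraries, and hypoxia replicate 4 lay close to the low normoxia pair. Its log2 fold change, hypoxia relative to normoxia, was 0.39 ± 0.40 (SE), with a 95% interval from −0.51 to 1.28 (edgeR quasi-likelihood test, Benjamini-Hochberg adjusted p = 0.638). Without normoxia replicate 2 it was 0.71 ± 0.37 (−0.11 to 1.53; adjusted p = 0.281), and without normoxia replicate 3 it was 0.58. It dropped to 0.15 without normoxia replicate 4, to 0.20 without normoxia replicate 1, and to 0.18 when hypoxia replicate 2 was left out. The groups overlapped either way.

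Fosb (ENSMUSG00000003545, chr7:19302696-19310051, minus strand) encodes FOSB, whose truncated splice form accumulates with repeated stimulation; gene counts do not separate the forms. Its CPM were 10.98, 16.4, 11.4 and 8.29 in hypoxia and 3.86, 16.7, 6.60 and 4.31 in normoxia. All hypoxia libraries were above 3 of the 4 normoxia libraries, and normoxia replicate 2 was above all of them. This gave a log2 fold change of 0.58 ± 0.44 (95% interval −0.39 to 1.56; edgeR adjusted p = 0.498). Once normoxia replicate 2 was left out the groups no longer overlapped, and the change was 1.27 ± 0.25 (0.72 to 1.82; adjusted p = 0.0275). Over the 8 fits that each left out 1 library the adjusted p ran from 0.0275 to 0.724, and only the fit without normoxia replicate 2 passed the threshold of 0.05. The change was smaller, at 0.36, without normoxia replicate 1 and at 0.38 without either normoxia replicate 4 or hypoxia replicate 2.

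Fosl2 (ENSMUSG00000029135, chr5:32135801-32157842, plus strand) encodes FRA-2, a FOS relative with no strong activation domain. It was at 31.4, 38.6, 30.6 and 25.8 CPM in hypoxia and at 18.9, 44.2, 18.8 and 14.2 CPM in normoxia. As for Fosb, 3 normoxia libraries were below every hypoxia library and normoxia replicate 2 was the highest of all 8. Its log2 fold change was 0.40 ± 0.32 (95% interval −0.31 to 1.11; edgeR adjusted p = 0.526) and, without that library, 0.88 ± 0.14 (0.56 to 1.20; adjusted p = 0.0145). The adjusted p ran from 0.0145 to 0.738 when each library was left out in turn, and again passed only in the fit without normoxia replicate 2. Without normoxia replicate 4 the change was 0.22.

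Fosl1, the remaining FOS gene, was not tested because its counts did not pass the filter. Its exons share 1163 bases with Ccdc85b on the other strand, which had 719 to 850 counts. If the counting did not use strand, Fosl1 reads of those bases could have gone uncounted.

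**Figure D2:**
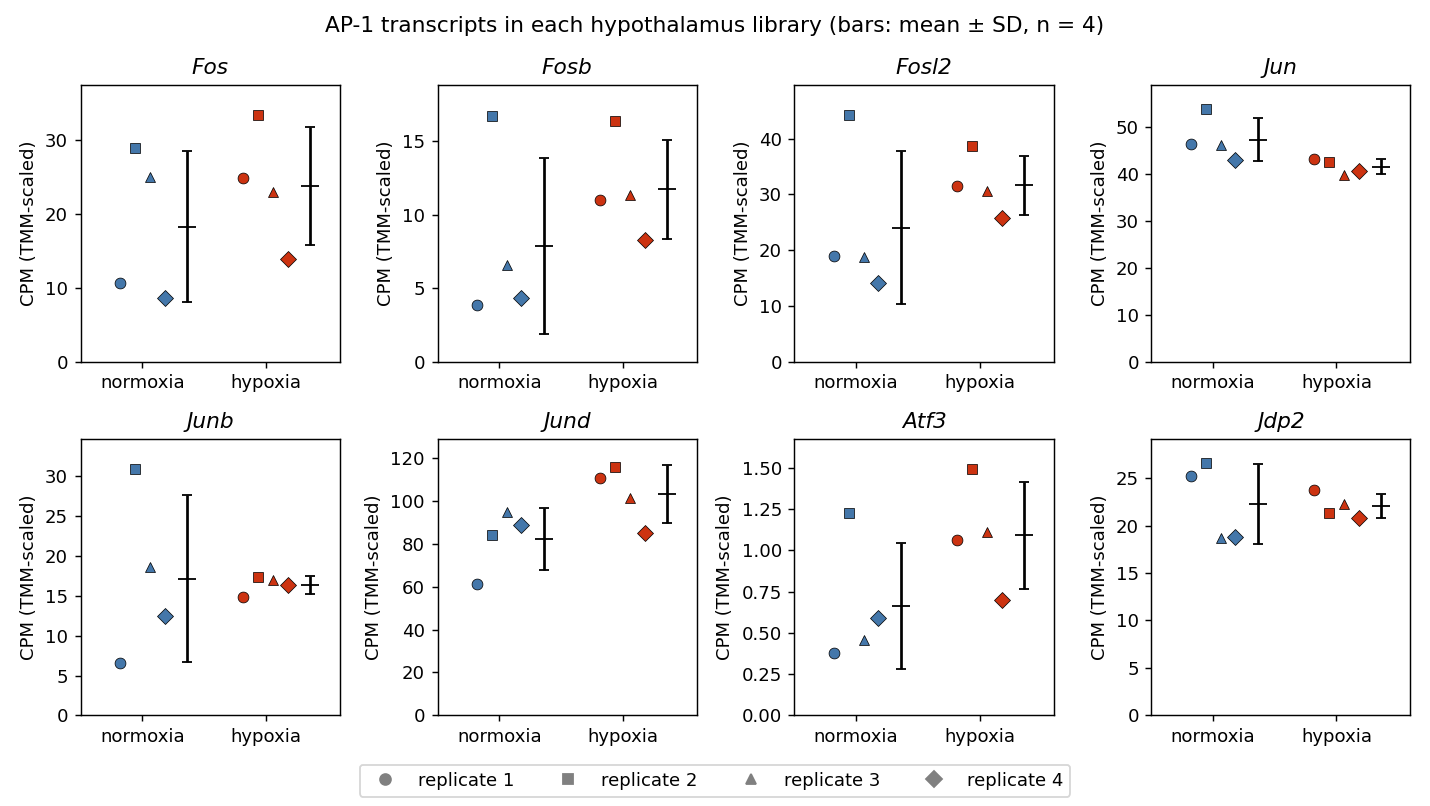
TMM-scaled CPM of each AP-1 transcript in every library, normoxia in blue and hypoxia in red, with the mean and SD (n = 4) as bars beside the points and 1 marker shape per replicate number. For Fosb and Fosl2, normoxia replicate 2 (square) lies at or above the hypoxia libraries and the other 3 normoxia libraries lie below all of them.

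Jun (ENSMUSG00000052684, chr4:95049034-95052222, minus strand) is a gene of 1 exon encoding c-JUN, the AP-1 subunit activated by JNK. Its CPM were 43.2, 42.6, 39.7 and 40.6 in hypoxia and 46.5, 53.9, 46.1 and 42.9 in normoxia. Only hypoxia replicate 1 lay above the lowest normoxia library. The difference, a log2 fold change of −0.19 ± 0.07 (95% interval −0.35 to −0.03), had an unadjusted p of 0.0278 and an edgeR adjusted p of 0.199, and did not pass. It was, without normoxia replicate 2, −0.12 ± 0.05 (−0.24 to 0.00; adjusted p = 0.239). The exon shares 232 bases with Junos on the other strand, which had 12 to 24 counts per library, against 799 to 1013 for Jun.

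Junb (ENSMUSG00000052837, chr8:84974484-84978718, minus strand) encodes JUNB, a weaker activator than c-JUN that restrains it at many sites. Its CPM were 14.8, 17.4, 16.96 and 16.4 in hypoxia and 6.54, 30.9, 18.7 and 12.5 in normoxia. The hypoxia libraries were close together inside the range of the normoxia libraries, which differed 4.74-fold between the lowest and the highest. Between the groups the log2 fold change was −0.06 ± 0.37 (95% interval −0.89 to 0.77; edgeR adjusted p = 0.944), and 0.40 ± 0.26 (−0.19 to 0.98; adjusted p = 0.398) without normoxia replicate 2, so its sign turned on that library. It was −0.33 without normoxia replicate 1, −0.18 without normoxia replicate 4 and −0.01 without normoxia replicate 3. Its exons share 173 bases with Prdx2 on the other strand, which had 2891 to 3738 counts against 139 to 582 for Junb. If the counting did not use strand, reads of the shared bases could not be assigned.

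Jund (ENSMUSG00000071076, chr8:70698949-70700616, plus strand), a gene of 1 exon, encodes JUND, which is known to oppose proliferation and to protect cells from oxidative stress. It was at 110.7, 115.8, 101.2 and 84.9 CPM in hypoxia and at 61.5, 83.9, 94.9 and 88.6 CPM in normoxia. Hypoxia replicates 1 to 3 were above all normoxia libraries, and hypoxia replicate 4 was below normoxia replicates 3 and 4. Its log2 fold change was 0.33 ± 0.14 (95% interval 0.02 to 0.64), with an unadjusted p of 0.0397 and an edgeR adjusted p of 0.234. It was 0.34 ± 0.15 without normoxia replicate 2 (adjusted p = 0.198), where this gene was at 1.03 times the mean of the other normoxia libraries, and 0.22 without normoxia replicate 1. The exon shares 877 of its bases, 52.6% of its length, with Gm11175 on the other strand, listed with 24 to 47 counts. If the counting did not use strand, reads of those bases could have gone uncounted, and the level per kb, the share and the ratio given for Jund could be too low.

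The ratio of Jund to Jun CPM within a library does not depend on how libraries are scaled. It was 2.56, 2.72, 2.55 and 2.09 in hypoxia and 1.32, 1.56, 2.06 and 2.07 in normoxia, with means of 2.48 ± 0.271 and 1.75 ± 0.372 (SD, n = 4). The groups did not overlap, by a narrow gap between hypoxia replicate 4 and normoxia replicate 4. This was 1 of 4 ratios computed, singled out after its values were seen, and is given with no test. The ratio of Junb to Jun was 0.395 ± 0.0365 in hypoxia and 0.353 ± 0.183 in normoxia, where it ran from 0.141 to 0.574. Fosb to Fos was 0.506 ± 0.0657 and 0.427 ± 0.141, and Fosl2 to Fos 1.40 ± 0.313 and 1.43 ± 0.461; these 3 ratios overlapped between the groups.

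Atf3 (ENSMUSG00000026628, chr1:191170296-191218039, minus strand) encodes a zipper protein induced by many cell stresses that mostly represses. It had 22, 28, 23 and 14 counts in hypoxia (1.06, 1.49, 1.11 and 0.699 CPM) and 8, 23, 8 and 13 in normoxia (0.376, 1.22, 0.459 and 0.590 CPM). Every hypoxia library was above 3 of the normoxia libraries, and normoxia replicate 2 lay among the hypoxia libraries. The log2 fold change was 0.72 ± 0.38 (95% interval −0.14 to 1.58; edgeR adjusted p = 0.337) and 1.18 ± 0.33 without normoxia replicate 2 (0.45 to 1.92; adjusted p = 0.0756). Over the 8 fits with 1 library left out the log2 fold change ran from 0.53, without normoxia replicate 1, to 1.18, and none of them called Atf3.

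Jdp2 (ENSMUSG00000034271, chr12:85599027-85639878, plus strand) encodes a repressor that pairs with JUN proteins. Its CPM were 23.7, 21.4, 22.3 and 20.8 in hypoxia and 25.3, 26.6, 18.7 and 18.8 in normoxia. The hypoxia libraries lay between a high and a low pair of normoxia libraries. This left a log2 fold change of −0.02 ± 0.12 (95% interval −0.30 to 0.26; edgeR adjusted p = 0.954), and 0.08 ± 0.11 (−0.16 to 0.33; adjusted p = 0.706) without normoxia replicate 2. Its exons share 165 bases with Gm47863 on the other strand, listed with 43 to 84 counts.

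Of the 8 genes, 0 were called at an adjusted p under 0.05 by edgeR, where 2.15% of all genes tested were called. At an unadjusted p under 0.05 there were 2, Jun lower and Jund higher, where the share of all genes was 19.3%. The groups failed to overlap for 0 of the 8, against 13.4% of all genes. Log2 fold changes were positive for 5 of 8, with a median of 0.36, beside a median of −0.01 over all genes tested. DESeq2, limma-voom and a fit with the replicate number as a block also called none of the 8.

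Leaving out normoxia replicate 2, a choice made with its values known, gave 2 calls of higher expression in hypoxia, Fosb and Fosl2, with 1.91% of all genes called higher. The groups then did not overlap for 3 of the 8, Fosb, Fosl2 and Atf3, against 20.3% of all genes. The median of the 8 was 0.55 and 7 were positive, beside a median of 0.00 over all genes. Leaving out hypoxia replicate 4 as well, which had the next highest sum of pituitary markers, gave 3 calls, Fosb, Fosl2 and Atf3, where 2.66% of all genes were called higher. For each of these 3, hypoxia replicate 4 was the lowest of its group and normoxia replicate 2 the highest of its own. Leaving out both could therefore only raise their log2 fold changes. Atf3 then stood at a log2 fold change of 1.34 (edgeR adjusted p = 0.0338).

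**Figure D3:**
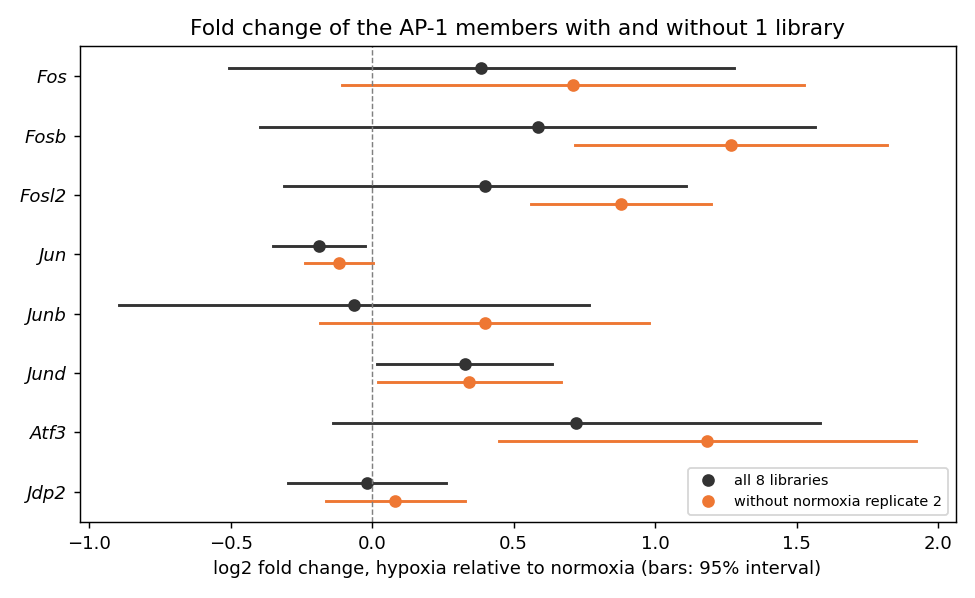
Log2 fold change of each AP-1 transcript, hypoxia relative to normoxia, with its 95% interval, from all 8 libraries (black) and without normoxia replicate 2 (orange). With all libraries the intervals of Jun and Jund alone exclude 0, and without that library those of Fosb, Fosl2, Jund and Atf3 do.

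The genes differed in how much they varied between animals of the same group. In normoxia the SD of log2 CPM was 0.95 for Fosb, 0.94 for Junb, 0.87 for Fos, 0.71 for Fosl2 and 0.65 for Atf3, beside a median of 0.16 over all genes tested. Between 95.4 and 98.7% of all genes had a smaller SD than these 5. The genes compared were not matched by level. Atf3 had 8 to 23 counts per normoxia library, so part of its SD can be counting noise. In hypoxia the SD was 0.52 for Fos, 0.41 for Atf3, 0.40 for Fosb and 0.24 for Fosl2, and 0.10 for Junb, where the median of all genes was 0.11. Jun was steady in both groups, at 0.06 in hypoxia and 0.14 in normoxia. Jund was at 0.20 and 0.28 and Jdp2 at 0.08 and 0.27. When normoxia replicate 2 was left out, the normoxia SD of Fosb was 0.40, of Fosl2 0.24 and of Atf3 0.27, while that of Fos was 0.81 and that of Junb 0.76.

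The same libraries were high or low for several of the genes. Normoxia replicate 2 was the highest of its group for 7 of the 8, all but Jund, and the highest of all 8 libraries for Fosb, Fosl2, Jun, Junb and Jdp2. Relative to the mean of the other normoxia libraries it was 3.39-fold higher for Fosb, 2.57-fold for Atf3, 2.56-fold for Fosl2, 2.46-fold for Junb and 1.96-fold for Fos. It was 1.27-fold higher for Jdp2 and 1.19-fold for Jun. Hypoxia replicate 2 was the highest of its group for 6 of the 8. Its summed cortex and hippocampus markers were the lowest of that group, at 771 CPM, of which Camk2a gave 559. Slc17a7 (80.3 CPM), Neurod2 (6.56 CPM) and Neurod6 (2.72 CPM) of the same list were the highest of the group there. The part of these markers in the AP-1 values of that library was not tested. Hypoxia replicate 4 was the lowest of its group for 6 of the 8. Normoxia replicate 1 was the lowest of all libraries for Fosb, Junb, Jund and Atf3, and normoxia replicate 4 for Fos and Fosl2.

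**Figure D4:**
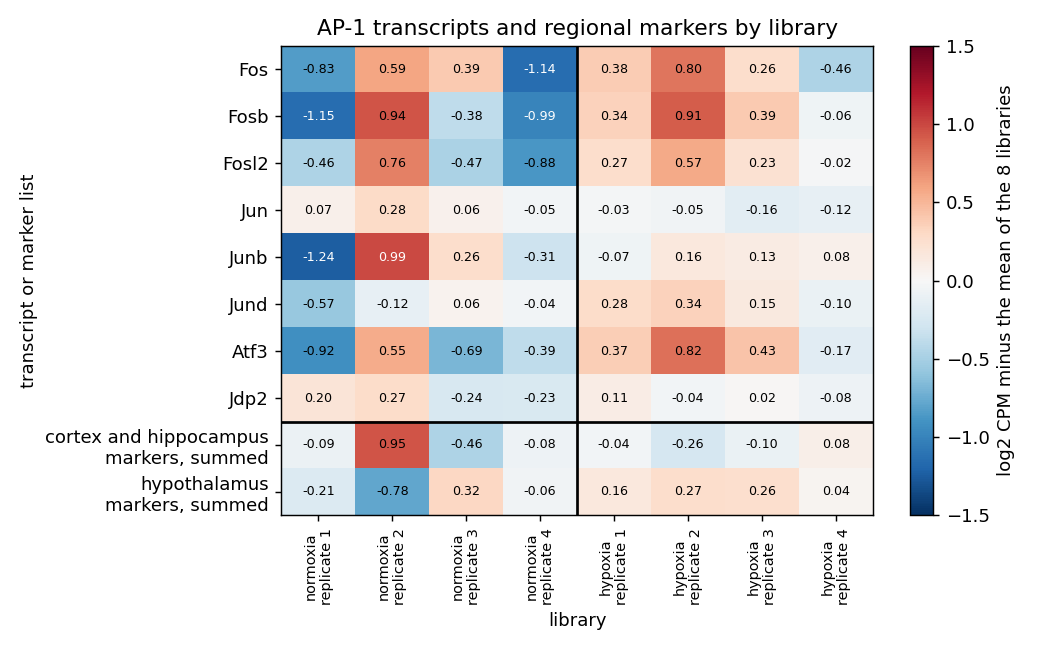
Log2 CPM of each AP-1 transcript, and of 2 summed lists of regional markers, minus its mean over the 8 libraries (colour and printed value). Rows are transcripts or marker lists and columns are libraries, with normoxia left of the vertical line. Fos, Fosb, Fosl2, Junb and Atf3 are high in normoxia replicate 2, where the summed cortex and hippocampus markers are also high, and in hypoxia replicate 2, where that sum is the lowest of its group while its members Slc17a7, Neurod2 and Neurod6 are the highest.

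Across the 8 libraries, 7 correlations of log2 CPM with Fos were computed. The largest was that of Fosb, with Pearson's r = 0.877 (exact permutation test, two-sided p = 0.00566, adjusted p = 0.0396) and Spearman's rho = 0.786 (exact permutation p = 0.0279, adjusted p = 0.0977). Without normoxia replicates 1 and 4, the 2 libraries farthest from the median of Fos, r was 0.621, so the relation leans on them. With any 1 library left out its r ran from 0.837 to 0.961 and the adjusted exact permutation p from 0.00556 to 0.121, and it passed only without hypoxia replicate 4 or normoxia replicate 3. Fosl2 had r = 0.808 (exact permutation p = 0.0186, adjusted p = 0.0650) and rho = 0.738, Junb r = 0.696 and rho = 0.833, Atf3 r = 0.715 and rho = 0.691, and Jund r = 0.658 and rho = 0.476. With all libraries, none of these 4 passed after adjustment over the 7 relations (exact permutation tests, lowest adjusted p = 0.0650 for r and 0.0977 for rho). With 1 library left out, the r of Fosl2 passed only without normoxia replicate 3 (adjusted exact permutation p = 0.00417) or hypoxia replicate 4 (0.0354). That of Atf3 passed only without normoxia replicate 3 (adjusted exact permutation p = 0.0116), and those of Junb and Jund in no such run. Jun had r = 0.207 and Jdp2 r = 0.233 with Fos. Among the other pairs, given as a description over the same 8 libraries, Fosb and Fosl2 had r = 0.952, Fosb and Atf3 r = 0.930, and Jun and Jund r = −0.388.

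The 3 tested genes, at a mean of 1 CPM or more, whose log2 CPM followed each member most closely were found by Pearson's r over the 8 libraries. For Fos they were Ube2r2 (r = 0.954), Prdx3 and Mplkip, and for Fosb Tob2 (r = 0.975), Carmil1 and Rin2. For Fosl2 they were Pcdhgb7 (r = 0.971), Gpr21 and Rps23, and for Atf3 Rps15 (r = 0.973), Clta and Iqsec3. For Jun they were Uqcrq (r = 0.988), Csk and Ablim1, for Junb Ackr1 (r = 0.981), Hmgn1 and Artn, for Jund Cdc14a (r = 0.983), Gdpd1 and Zfp771, and for Jdp2 Tubb2a (r = 0.964), Sgf29 and Pgam5. The 8 members were left out of this search, so none could appear as the nearest gene of another. With 8 points and 17047 genes, high values arise readily, and the libraries share depth and tissue composition, so these are descriptions with no test.

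The rest of the pathway was read from lists of named genes. Of 7 other AP-1 zipper genes only 3 passed the filter, Atf2, Atf7 and Creb5, and 0 were called by edgeR, with or without normoxia replicate 2 (1 at an unadjusted p under 0.05, a level that 19.3% of all genes reached). Atf7, a partner of JUN proteins, had the smallest p of them. Its hypoxia level was 26.9 ± 0.693 CPM and its normoxia level 31.8 ± 1.73 (SD, n = 4), with a log2 fold change of −0.24 ± 0.06 (edgeR adjusted p = 0.0668). Atf7 passed 0.05 by DESeq2 (adjusted p = 0.0335) and with scaling by library size alone (edgeR adjusted p = 0.0415), and in no other fit. Of 20 kinases of the MAP kinase cascades that phosphorylate AP-1 and its regulators, 0 were called by edgeR. At an unadjusted p under 0.05 there were 2, where the share of all genes was 19.3%. In this list 9 were positive, and the median log2 fold change was −0.02, or 0.03 without normoxia replicate 2. Without normoxia replicate 2, Map2k1, which activates ERK kinases, was the 1 called, as higher, where 1.91% of all genes were called higher. Without hypoxia replicate 4 as well 0 were called, where 2.66% of all genes were called higher. Map2k3, which activates p38, had the smallest p, at a log2 fold change of −0.34 ± 0.10 (edgeR adjusted p = 0.122).

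Of 16 factors that bind FOS and JUN promoters, among them SRF, its ELK partners, CREB1 and the CRTC coactivators, 0 were called by edgeR. At an unadjusted p under 0.05 there were 3, where the share of all genes was 19.3%. There were also 0 calls without normoxia replicate 2. Without hypoxia replicate 4 as well 1 was called higher and 1 lower, where 1195 of 17132 genes were called in either direction. The median log2 fold change was 0.01, or 0.08 without normoxia replicate 2, and 9 were positive with all libraries. Creb1, whose protein is known to bind cAMP response elements, had the smallest p. Its level was 54.2 ± 3.44 CPM in the hypoxia and 64.3 ± 7.76 in the normoxia mice, with a log2 fold change of −0.25 ± 0.09 (edgeR adjusted p = 0.156). Without normoxia replicate 2 the change of Creb1 was −0.16 (edgeR adjusted p = 0.145). Without hypoxia replicate 4 as well it was −0.21 (edgeR adjusted p = 0.0433). Creb1 was thus the factor called lower there, and it passed 0.05 in no other fit.

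Of 7 genes for the turnover and cofactors of FOS and JUN, 1 rose and 1 fell, where 2.15% of all genes were called, with a median log2 fold change of 0.04. Zfp36 encodes tristetraprolin, which speeds the decay of mRNAs with AU-rich elements, and is itself an immediate early gene. Its level was 9.27 ± 2.13 CPM in the hypoxia and 4.75 ± 0.912 in the normoxia mice (SD, n = 4), with a log2 fold change of 0.97 ± 0.19 (edgeR adjusted p = 0.0395). Itch encodes a ubiquitin ligase of c-JUN and JUNB, and was at 67.1 ± 4.62 and 84.7 ± 2.87 CPM, a log2 fold change of −0.33 ± 0.06 (edgeR adjusted p = 0.0284). Both calls held without normoxia replicate 2 and without hypoxia replicate 4, and both were lost when any of the other 6 libraries was left out. Over the 8 fits the adjusted p of Zfp36 ran from 0.0155 to 0.126 and that of Itch from 0.00781 to 0.120, with the same sign throughout.

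Of 18 genes known to respond to AP-1, 13 passed the filter, and 0 rose and 1 fell (2.15% of all genes were called), with 8 of 13 positive and a median log2 fold change of 0.10. Without normoxia replicate 2 the median was −0.03. Ccnd1, the cyclin D1 gene, fell from 47.8 ± 3.73 CPM in normoxia to 38.5 ± 1.48 in hypoxia, a log2 fold change of −0.31 ± 0.07 (edgeR adjusted p = 0.0469). With single libraries left out it passed in 1 fit of 8, the one without normoxia replicate 2, and its adjusted p ran from 0.00940 to 0.167. The call was also lost under RLE scaling (edgeR adjusted p = 0.0501), under upper-quartile scaling (adjusted p = 0.0694) and with no filter (adjusted p = 0.0550). Its exons share 1100 bases with LTO1 on the other strand. Pdyn, the dynorphin precursor gene, was called higher without normoxia replicate 2, where 1.91% of all genes were called higher. With all libraries its log2 fold change was 0.50 ± 0.19 (edgeR adjusted p = 0.195). The protease and cytokine genes Mmp3, Mmp10, Mmp13, Il6 and Ccl2 did not pass the filter on low counts.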

How the data were processed

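RNA-seq libraries of 8 mouse hypothalami (made with a stranded mRNA kit, per the labels) were analysed from the deposited table of raw read counts per Ensembl gene. Per the submitters' processing notes, the tools included HISAT2 2.0.4, Trimmomatic, SAMtools, featureCounts and DESeq2, with build mm10. Annotation release, strand setting and handling of multi-mapped reads: not given in the sources used here. Columns were matched to libraries by the sample descriptions, and 55141 identifiers were matched to symbols. Gene coordinates and exon lengths come from GENCODE M21 (GRCm38), and promoters from the RefSeq table of GRCm38.p6, in which all 8 genes matched.

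Counts were tested with edgeR 4.0.16 (R 4.3.3): filterByExpr (minimum count 10, minimum total 15), TMM scaling, group as the only term, and the quasi-likelihood F test with Benjamini-Hochberg adjustment over 17047 genes at 0.05. Log2 CPM used a prior count of 2, and 95% intervals use the test's own degrees of freedom. The gene test was tried on simulated counts. Correlations were tested by exact permutation. Libraries within a group are biological replicates per the series text, and each pair of them differed by more than sampling noise. Alternatives were DESeq2 1.42.0, limma-voom 3.58.1, other scalings, filters and thresholds, a replicate block, and leaving out libraries. Genes named from the pathway lists were those called, or, in a list with none called, the one with the smallest p. The nearest genes were the 3 with the highest r at a mean of at least 1 CPM. The members and lists were chosen with earlier results of these data known. A comparison of the proteins was planned and is not used here.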

Additional observations from a re-analysis of the deposited data

Results flagged for a closer look

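Fosl2 in normoxia replicate 2 stood at 44.2 CPM, far from the other normoxia libraries, at 14.2 to 18.9 CPM. Its distance to the nearest of them was 0.843 of the whole range of the group, above Dixon's 95% critical value for 4 samples. It was the only such value among 16 groups of the 8 genes. Chance gives about 1 in 20, so 1 flagged among 16 is close to the number chance gives. The same library had the highest sum of cortex and hippocampus markers, at 1779 CPM, and the part of this in the Fosl2 value was not tested.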

How the results depend on the processing

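With all 8 libraries, 156 genes were called higher and 210 lower in hypoxia by edgeR. The counts were 363 and 588 by DESeq2, 384 and 674 at an adjusted p under 0.1, and 456 and 739 without normoxia replicate 2 and hypoxia replicate 4 together. Scaling by library size alone gave 342 lower. When each library was left out in turn they ran from 24 to 329 higher and from 2 to 457 lower. The cause of these differences was not tested. Same-numbered libraries of the groups did not deviate together (correlations from −0.105 to 0.0430). The labels do not say that the numbers pair the mice, and a pairing of small effect could leave such correlations, so it is not excluded. A replicate block gave 20 higher and 1 lower and called none of the 8 AP-1 genes. Under it the calls of Itch (adjusted p = 0.121), Zfp36 (0.0687) and Ccnd1 (0.156) were lost.

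Calls of AP-1 genes as higher ran from 0 to 2 when 1 library was left out and were 3 without both libraries. Without normoxia replicate 2 the log2 fold change of Fosb was 1.27 and of Fosl2 0.88, and without both libraries 1.40 and 0.96. With 1 library left out they went down to 0.36 for Fosb (without normoxia replicate 1) and 0.22 for Fosl2 (without normoxia replicate 4). Fos, Fosb, Fosl2, Jun, Jund and Atf3 kept their sign in every alternative run. Junb turned positive under limma-voom (0.19), the replicate block (0.12) and without both libraries (0.39), and ran from −0.33 to 0.40 with 1 library left out. Jdp2 was 8.47e-05 under upper-quartile scaling, 0.00078 under limma-voom and 0.10 without both, and ran from −0.086 to 0.082 with 1 library left out. The correlation with Fos, with 1 library left out (an alternative added after seeing the data), ran from 0.837 to 0.961 for Fosb, 0.677 to 0.961 for Fosl2, 0.614 to 0.926 for Atf3, 0.604 to 0.759 for Junb, 0.533 to 0.815 for Jund, −0.134 to 0.351 for Jun and −0.139 to 0.544 for Jdp2. Atf3 gave no value under the filter on a mean of 1 CPM. It had 8 to 28 counts per library.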
